A study of Mus musculus with 9 samples.

Results

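The genes described here are 36 genes that mark endothelial cells, the cells that line blood and lymph vessels, followed over 9 Affymetrix expression arrays of sorted mouse forelimb bud cells. Each gene is represented by 1 probe set that the annotation gives to that gene symbol alone, the one with the highest mean over the 9 arrays. All 36 genes were found, with 62 such probe sets between them, among 18193 genes with a probe set of this kind and 45037 probe sets tested. For 17 of the 36 there was more than 1 probe set to choose from. They fall into 13 surface and junction genes (Pecam1, Cdh5, Cldn5, Esam, Emcn, Icam2, Cd34, Plvap, Clec14a, Robo4, Adgrf5, Lyve1 and Ecscr), 7 growth factor and peptide receptor genes (Kdr, Flt1, Flt4, Tek, Tie1, Eng and Ramp2), 2 genes of the Notch pathway (Notch4 and Dll4), 10 transcription factor genes (Sox7, Sox17, Sox18, Erg, Fli1, Ets1, Etv2, Tal1, Lyl1 and Gata2) and 4 genes for secreted or intracellular proteins (Egfl7, Mmrn2, Rasip1 and Nos3).

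The first group, PAX3-FKHR GFP+, holds GFP+ cells of Pax3PAX3-FKHR/GFP embryos, in which 1 Pax3 allele carries GFP and the other carries PAX3-FKHR-IRESnlacZ, a fusion of Pax3 with the activation domain of a forkhead factor. This allele is conditional and was activated by a PGK-Cre transgene that the mothers carried. The group called control GFP+ holds GFP+ cells of Pax3GFP/+ embryos, and the last group holds GFP- cells. All cells came from forelimb buds at E10.5, pooled over embryos by genotype, dissociated and separated by flow cytometry, and both targeted lines were kept on a C57 BL6/DBA2 background. For the GFP- cells the labels are silent on the genotype. The study's results and statistics take them from Pax3GFP/+ embryos, while its array methods list a Pax3+/+ group. The genotype is therefore not settled here. Each group has 3 arrays, numbered 1 to 3 in the labels and described in the methods as biological replicates, and n = 3 for each group mean given. Since both GFP alleles sit in Pax3, the GFP+ groups contain whatever cells of the bud used that locus or still held GFP protein. All values are the authors' RMA values on the log2 scale, on which a step of 1 is a doubling. Precision is limited by there being 3 arrays in a group, and the level of one probe set is not set against that of another.

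Endothelial cells are joined to each other by VE-cadherin (Cdh5) and claudin 5 (Cldn5), and respond to VEGF through Kdr, Flt1 and Flt4 and to angiopoietins through Tek. Their identity depends on ETS factors such as Etv2, Erg and Fli1 and on the SoxF factors Sox7, Sox17 and Sox18. Part of the endothelium of the limb is known to come from the dermomyotome of the somite, the same Pax3-expressing epithelium that supplies the limb with muscle progenitors, while red blood cells, platelets and macrophages reach the bud through its vessels.

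The sort itself was clear on every array. Pax3 had values of 7.15, 6.83 and 7.33 on the PAX3-FKHR GFP+ arrays, 9.92, 8.94 and 10.22 on the control GFP+ arrays and 5.17, 5.14 and 4.77 on the GFP- arrays, with no overlap between any groups. This probe set was lower in PAX3-FKHR GFP+ than in control GFP+ cells by limma with Benjamini-Hochberg adjustment (log2 fold change -2.59, adjusted p = 0.00363). Whether it detects the PAX3-FKHR transcript is not known from the files. Over 19 myogenic genes, the mean deviation from the 9-array mean lay between 0.81 and 1.26 on the 6 GFP+ arrays and between -2.21 and -1.95 on the GFP- arrays. No such separation was present for the endothelial genes.

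The endothelial signal followed single arrays more than groups. By share of variance so did a typical probe set, with a median between groups of 36.8% for these genes and 34.6% for all probe sets. The mean over the 36 genes of the deviation from each gene's own 9-array mean was -0.13, 0.10 and -0.25 on PAX3-FKHR GFP+ arrays 1 to 3, 0.04, 0.64 and -0.06 on control GFP+ arrays 1 to 3, and -0.54, -0.03 and 0.23 on GFP- arrays 1 to 3. Control GFP+ replicate 2 was the highest of all the arrays and GFP- replicate 1 the lowest, and the 3 groups overlapped. These deviations are a description and carry no test. In these bulk samples fewer endothelial cells and less endothelial RNA per cell cannot be told apart.

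Control GFP+ replicate 2 gave the highest value of the 9 arrays for 24 of the 36 genes, against 12.5% of all probe sets tested, and the highest of its own group for 31 of them, against 33.4%. GFP- replicate 1 gave the lowest of the 9 values for 19 of the 36 genes, against 15.3% of all probe sets. In its own group it was the lowest for 29 genes, against 32.7%. Among the GFP- arrays, replicate 3 was the highest for 26 of the genes (31.2% of all probe sets), and among the PAX3-FKHR GFP+ arrays replicate 2 was the highest, also for 26 (30.7%). The genes that were highest on control GFP+ replicate 2 came from every role, and included Pecam1, Cdh5, Cldn5, Kdr, Flt1, Tie1, Dll4, Sox17, Sox18, Ets1, Egfl7 and Nos3. The genes that were not were Esam, Clec14a, Lyve1, Tek, Notch4, Erg, Fli1, Etv2, Tal1, Lyl1, Gata2 and Mmrn2.

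**Figure D1:**
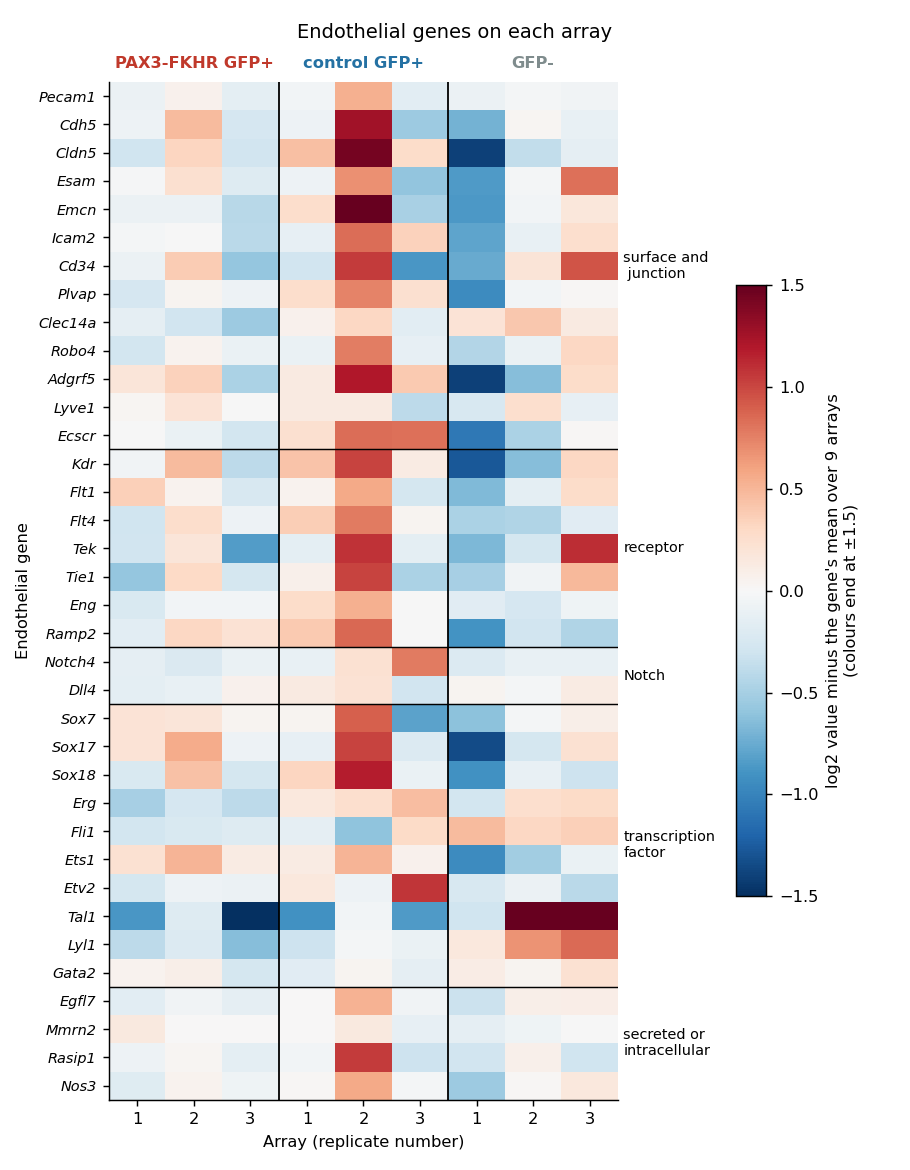
Each row is 1 of the 36 endothelial genes, ordered by role, and each column 1 of the 9 arrays, with the colour giving the log2 value minus the gene's mean over the 9 arrays (colours end at 1.5 on either side). Control GFP+ replicate 2 is red for most genes and GFP- replicate 1 blue, while Tal1 and Lyl1 are red on GFP- replicates 2 and 3.

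Within groups the endothelial genes spread further than the array as a whole. Their median range over 3 arrays was 0.37 in PAX3-FKHR GFP+, 0.88 in control GFP+ and 0.72 in GFP- cells, while the median range of all probe sets was 0.24, 0.33 and 0.26 in those groups. The ranges were not matched for level, and 30 of the 36 genes had a mean at or above the median of all values. The widest range in control GFP+ cells was that of Emcn, a sialomucin of capillaries and veins, at 2.02, and the widest in GFP- cells was that of Tal1, at 3.19. The narrowest were Fli1 (0.09) in PAX3-FKHR GFP+, Gata2 (0.22) in control GFP+ and Pecam1 (0.05) in GFP- cells. The share of a gene's variance over the 9 arrays that lay between groups had a median of 36.8% over the 36 genes (quartiles 14.9% and 60%), beside 34.6% over all probe sets and 38.2% over the probe sets at or above the median of all values. It was lowest for Esam, a junctional adhesion molecule, at 0.0408%, and highest for Lyl1, a basic helix-loop-helix factor shared with blood progenitors, at 78.8%.

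Most of the genes followed each other. The Pearson correlation of a gene with the mean of the other 35 over the 9 arrays had a median of 0.776 and ran from -0.579 (Fli1) to 0.97 (Nos3), with 23 genes at or above 0.7. After each group's mean had been removed, the median was 0.872 and the range -0.731 (Fli1) to 0.995 (Sox17), with 26 genes at or above 0.7 and 3 below 0, namely Notch4, Fli1 and Etv2. These correlations are over arrays that share their amplification and depth of hybridization, and are given without a p.

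The junction genes showed this array pattern plainly. Cdh5 had 5.05, 5.60 and 4.88 in PAX3-FKHR GFP+ cells, 5.05, 6.39 and 4.59 in control GFP+ cells and 4.42, 5.15 and 5.01 in GFP- cells. Control GFP+ replicate 2 was the highest array, followed by PAX3-FKHR GFP+ replicate 2, and all groups overlapped. Cldn5 had 6.52, 7.14 and 6.54 in PAX3-FKHR GFP+ cells, 7.28, 8.26 and 7.10 in control GFP+ cells and 5.42, 6.45 and 6.69 in GFP- cells. All control GFP+ values of Cldn5 were above all GFP- values, and PAX3-FKHR GFP+ cells overlapped with both. Emcn had 4.89, 4.89 and 4.57 in PAX3-FKHR GFP+ cells, 5.25, 6.52 and 4.50 in control GFP+ cells and 4.12, 4.95 and 5.16 in GFP- cells, so that control GFP+ replicates 1 and 2 were the highest arrays and replicate 3 lay among the rest.

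Pecam1 and Lyve1 were measured by probe sets with low values. Pecam1, the platelet and endothelial adhesion molecule, had 4.39, 4.54 and 4.32 in PAX3-FKHR GFP+ cells, 4.44, 5.01 and 4.31 in control GFP+ cells and 4.39, 4.44 and 4.42 in GFP- cells. Control GFP+ replicate 2 alone stood clear of the others, and this probe set is the single one for the gene. Lyve1, a hyaluronan receptor of lymphatic endothelium and of some macrophages, had 4.44, 4.61 and 4.40 in PAX3-FKHR GFP+ cells, 4.54, 4.54 and 4.01 in control GFP+ cells and 4.17, 4.65 and 4.28 in GFP- cells, with all groups overlapping. The means of Pecam1, Lyve1, Clec14a, Sox17, Emcn and Rasip1 lay below 5.11, the median of all values in the table, and those of the other 30 genes at or above it.

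Of the receptors, Kdr, the main signalling receptor for VEGF, had 8.05, 8.58 and 7.70 in PAX3-FKHR GFP+ cells, 8.53, 9.11 and 8.22 in control GFP+ cells and 6.83, 7.46 and 8.40 in GFP- cells. GFP- replicates 1 and 2 were the lowest arrays, and GFP- replicate 3 lay among the GFP+ arrays. Tek, the angiopoietin receptor, had 5.25, 5.72 and 4.70 in PAX3-FKHR GFP+ cells, 5.39, 6.62 and 5.39 in control GFP+ cells and 4.87, 5.27 and 6.65 in GFP- cells. Tie1, its partner receptor, had 4.74, 5.62 and 5.07 in PAX3-FKHR GFP+ cells, 5.40, 6.35 and 4.85 in control GFP+ cells and 4.83, 5.28 and 5.81 in GFP- cells. For both Tek and Tie1, control GFP+ replicate 2 and GFP- replicate 3 were the highest arrays, and the groups overlapped.

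The SoxF genes encode factors of early and arterial endothelium. Sox7 had 5.44, 5.41 and 5.27 in PAX3-FKHR GFP+ cells, 5.27, 6.13 and 4.43 in control GFP+ cells and 4.61, 5.20 and 5.32 in GFP- cells. Sox17 had 4.62, 4.96 and 4.34 in PAX3-FKHR GFP+ cells, 4.29, 5.42 and 4.20 in control GFP+ cells and 3.07, 4.14 and 4.64 in GFP- cells. Sox18 had 5.82, 6.49 and 5.79 in PAX3-FKHR GFP+ cells, 6.38, 7.23 and 5.96 in control GFP+ cells and 5.14, 5.95 and 5.74 in GFP- cells. All were highest on control GFP+ replicate 2. Sox17 and Sox18 were lowest on GFP- replicate 1 and Sox7 on control GFP+ replicate 3. Sox18 alone of them did not overlap between control GFP+ and GFP- cells, by a slight margin (5.956 on control GFP+ replicate 3, 5.950 on GFP- replicate 2). Etv2, the ETS factor that starts the endothelial and blood programme, had 5.80, 5.99 and 5.98 in PAX3-FKHR GFP+ cells, 6.22, 5.98 and 7.13 in control GFP+ cells and 5.83, 5.98 and 5.65 in GFP- cells. It was thus highest on control GFP+ replicate 3 and not on replicate 2. So were Notch4 (5.99 on replicate 3 and 5.44 on replicate 2) and Erg (6.30 on replicate 3 and 6.09 on replicate 2). Control GFP+ replicate 3 gave the highest of the 9 values for 23.7% of all probe sets, and for 8.3% of the 36 genes.

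**Figure D2:**
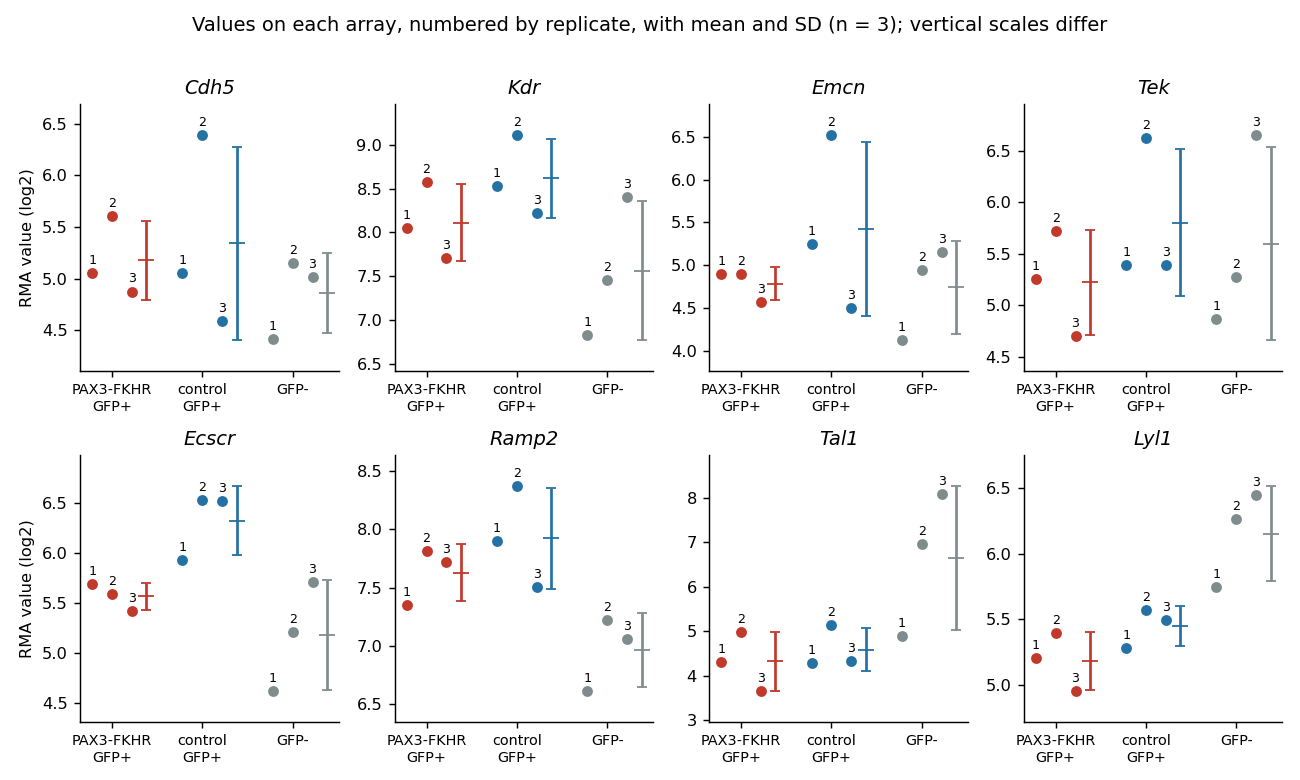
Each panel shows the RMA value (log2, vertical scales differ) of 1 gene on each array, numbered by replicate, with the group's mean and SD (n = 3) beside the points. Cdh5, Kdr, Emcn and Tek reach their highest value in control GFP+ cells on replicate 2, and Tal1 and Lyl1 their highest in GFP- cells on replicate 3.

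The first comparison, PAX3-FKHR GFP+ against control GFP+ cells, asks whether the gain-of-function allele changed endothelial transcripts among the sorted cells. No endothelial gene passed the test. A call was made by limma at a Benjamini-Hochberg adjusted p below 0.05, taken over all probe sets, together with a log2 fold change of 0.5 or more in size. On this rule 0 of 36 genes were called higher (0.395% of all probe sets) and 0 called lower (0.142%). At an unadjusted p under 0.05 there were 0 higher and 5 lower (Clec14a, Ecscr, Eng, Notch4 and Erg). The share of all probe sets at an unadjusted p under 0.05 was not computed, here or for the counts at that p below. Those counts are therefore not read as a result about the genes counted. The local pooled error test of the methods, as rebuilt here, also called 0 in either direction (0.595% of all probe sets higher and 0.204% lower). The smallest adjusted p was 0.209, for Erg. The log2 fold change was below 0 for 29 genes and above 0 for 7, with a median of -0.29 beside -0.01 over all probe sets.

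The size of that median depended on single arrays, being -0.08 without control GFP+ replicate 2 and -0.46 without control GFP+ replicate 3. It stayed below 0 whichever array was left out. The arrays of both groups did not overlap for 4 genes (12% of all probe sets), Plvap, Ecscr, Eng and Erg, which were all lower in PAX3-FKHR GFP+ cells. Erg had 5.33, 5.59 and 5.44 in PAX3-FKHR GFP+ cells and 5.99, 6.09 and 6.30 in control GFP+ cells, a log2 difference of -0.68 with a standard error of 0.17. The second Erg probe set, of lower level, gave 0.10 with a standard error of 0.13. Plvap, the diaphragm protein of fenestrated vessels, had 7.38, 7.68 and 7.56 in PAX3-FKHR GFP+ cells and 7.90, 8.38 and 7.88 in control GFP+ cells (log2 difference -0.51, standard error 0.26). By role, all 7 receptors, both Notch pathway genes and 11 of 13 surface genes had a value below 0, with medians of -0.39, -0.27 and -0.40, and 6 of 10 transcription factors did, with a median of -0.17. With 3 arrays against 3, an exact permutation test on a single gene cannot give a two-sided p under 0.1.

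The comparison of control GFP+ with GFP- cells asks which transcripts belong to the Pax3-GFP cells of the normal bud. It shares its control GFP+ arrays with the comparison above. Here 2 of the 36 genes rose, Ecscr and Ramp2 (1.84% of all probe sets were called higher), and 0 were called lower (4.01%). At an unadjusted p under 0.05 there were 12 higher and 3 lower, again without a share over all probe sets to set beside them. The local pooled error test called 3 members higher, Adgrf5, Ecscr and Kdr (1.47% of all probe sets), and 1 lower, Tal1 (3.91%). The arrays of both groups did not overlap for 12 genes (25% of all probe sets). Fli1 and Lyl1 were lower and Cldn5, Plvap, Ecscr, Flt4, Eng, Ramp2, Notch4, Sox18, Ets1 and Etv2 higher in control GFP+ cells. For Notch4, Etv2, Sox18 and Fli1 the margin was slight. The lowest control GFP+ and highest GFP- values of Notch4, Etv2 and Sox18 were 5.1026 and 5.1011, 5.9828 and 5.9783, and 5.9558 and 5.9501. Fli1, lower in control GFP+ cells, had a highest control GFP+ value of 6.7959 and a lowest GFP- value of 6.8108. In all, 28 genes had a log2 fold change above 0 and 8 below 0, with a median of 0.30 beside 0.06 over all probe sets. Without control GFP+ replicate 2 the median was 0.05, and without GFP- replicate 1 it was 0.13.

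Ecscr (probe set 1437451_at) encodes a cell surface protein of endothelial cells that takes part in chemotaxis. It had 5.68, 5.59 and 5.42 in PAX3-FKHR GFP+ cells, 5.92, 6.53 and 6.51 in control GFP+ cells and 4.62, 5.21 and 5.71 in GFP- cells. Every control GFP+ array was above every GFP- array, and above every PAX3-FKHR GFP+ array. In control GFP+ over GFP- cells the log2 fold change was 1.14 with a standard error of 0.26 (limma, adjusted p = 0.0282). The call was lost when control GFP+ replicate 2, control GFP+ replicate 3, GFP- replicate 1 or GFP- replicate 2 was left out, and when the fit held the 6 arrays compared alone (adjusted p = 0.0768). Over the leave-one-out fits its adjusted p ran from 0.0126 to 0.0873.

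Ramp2 (probe set 1418187_at) encodes the partner protein that turns the calcitonin receptor-like receptor into a receptor for adrenomedullin, a peptide needed for vessel development. It had 7.35, 7.81 and 7.72 in PAX3-FKHR GFP+ cells, 7.90, 8.37 and 7.50 in control GFP+ cells and 6.61, 7.22 and 7.06 in GFP- cells. The GFP+ groups overlapped with each other and neither overlapped with GFP- cells. In control GFP+ over GFP- cells the log2 fold change was 0.96 with a standard error of 0.24 (limma, adjusted p = 0.0439), and that of PAX3-FKHR GFP+ over GFP- cells was 0.66 (adjusted p = 0.147). The call of Ramp2 was lost without control GFP+ replicate 1 or 2 and without any 1 of the GFP- arrays, with an adjusted p of 0.0189 to 0.14 over the leave-one-out fits, and it was also lost in the fit of the 6 arrays compared (adjusted p = 0.0925) and by the local pooled error test (adjusted p = 0.146).

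The gene for the other part of that receptor, Calcrl, was in a further list of 41 endothelial genes and moved in the same direction. Calcrl had 7.20, 7.11 and 6.72 in PAX3-FKHR GFP+ cells, 7.47, 7.95 and 7.26 in control GFP+ cells and 5.40, 5.68 and 6.23 in GFP- cells. On the log2 scale it rose by 1.79 in control GFP+ over GFP- cells (adjusted p = 0.00258) and by 1.24 in PAX3-FKHR GFP+ over GFP- cells (adjusted p = 0.0129), by limma. Adm, which encodes the ligand adrenomedullin, was called in no comparison.

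Several members came close to the threshold in this comparison without passing it, in both directions. The nearest was Lyl1, lower in control GFP+ cells at -0.71 with a standard error of 0.19 (limma, adjusted p = 0.0588). Cldn5 gave 1.36 with a standard error of 0.37 (limma, adjusted p = 0.0599), Flt4, the VEGF-C receptor, 0.76 with 0.21 (adjusted p = 0.0604), and Ets1, an ETS factor that mesenchymal cells also use, 0.75 with 0.22 (adjusted p = 0.0707). Further from the threshold, Tal1 was lower at -2.06 with 0.66 (limma, adjusted p = 0.1). Kdr gave 1.06 with 0.38 (adjusted p = 0.141) and Adgrf5, an adhesion receptor, 1.17 with 0.41 (adjusted p = 0.13). Of the 4 probe sets of Ets1 the brightest pair were not called and the dimmer pair were called higher, at 0.96 (adjusted p = 0.032) and 0.72 (adjusted p = 0.0211). The second probe set of Flt4 gave 0.20 (adjusted p = 0.42). In this comparison the difference of group means exceeded the wider of both groups' ranges for 5 members, Cldn5, Ecscr, Flt4, Ramp2 and Lyl1, against 14.5% of all probe sets.

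In the comparison of PAX3-FKHR GFP+ with GFP- cells, which uses the same GFP- arrays, 0 of the 36 genes were called higher (2.8% of all probe sets) and 2 fell, Clec14a and Lyl1 (4% of all probe sets were called lower). At an unadjusted p under 0.05 there were 2 higher (Ramp2 and Ets1) and 5 lower (Clec14a, Erg, Fli1, Tal1 and Lyl1). The arrays of both groups did not overlap for 6 genes (27.5% of all probe sets), with Ramp2, Ets1 and Mmrn2 higher and Clec14a, Fli1 and Lyl1 lower in PAX3-FKHR GFP+ cells. In all, 23 genes had a log2 fold change above 0 and 13 below 0, with a median of 0.07 beside 0.04 over all probe sets, and of -0.03 without GFP- replicate 1. By the local pooled error test 2 members were called higher, Adgrf5 and Ets1 (3.04% of all probe sets), and 2 lower, Tal1 and Lyl1 (5.04%).

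Clec14a (probe set 1419467_at), a C-type lectin of endothelial cells, had 4.17, 4.02 and 3.76 in PAX3-FKHR GFP+ cells, 4.37, 4.62 and 4.14 in control GFP+ cells and 4.51, 4.71 and 4.44 in GFP- cells. All PAX3-FKHR GFP+ values were below all GFP- values, and control GFP+ cells overlapped with both. In PAX3-FKHR GFP+ over GFP- cells the log2 fold change was -0.58 with a standard error of 0.15 (limma, adjusted p = 0.0444). Leaving out PAX3-FKHR GFP+ replicate 2 or 3, or any 1 of the GFP- arrays, ended this call, with adjusted p from 0.0465 to 0.152 over the leave-one-out fits. It was also lost by limma without the intensity trend (adjusted p = 0.0536), by the local pooled error test (adjusted p = 0.109) and on the second Clec14a probe set, which gave -0.18 (adjusted p = 0.629).

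Lyl1 (probe set 1419120_at) had 5.21, 5.39 and 4.95 in PAX3-FKHR GFP+ cells, 5.28, 5.57 and 5.50 in control GFP+ cells and 5.75, 6.26 and 6.45 in GFP- cells. Neither GFP+ group overlapped with GFP- cells. The log2 fold change over GFP- cells was -0.97 with a standard error of 0.19 in PAX3-FKHR GFP+ cells (limma, adjusted p = 0.0129) and -0.71 with 0.19 in control GFP+ cells (adjusted p = 0.0588). The call was lost without PAX3-FKHR GFP+ replicate 3 or GFP- replicate 2, with adjusted p from 0.00582 to 0.0574 over the leave-one-out fits.

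**Figure D3:**
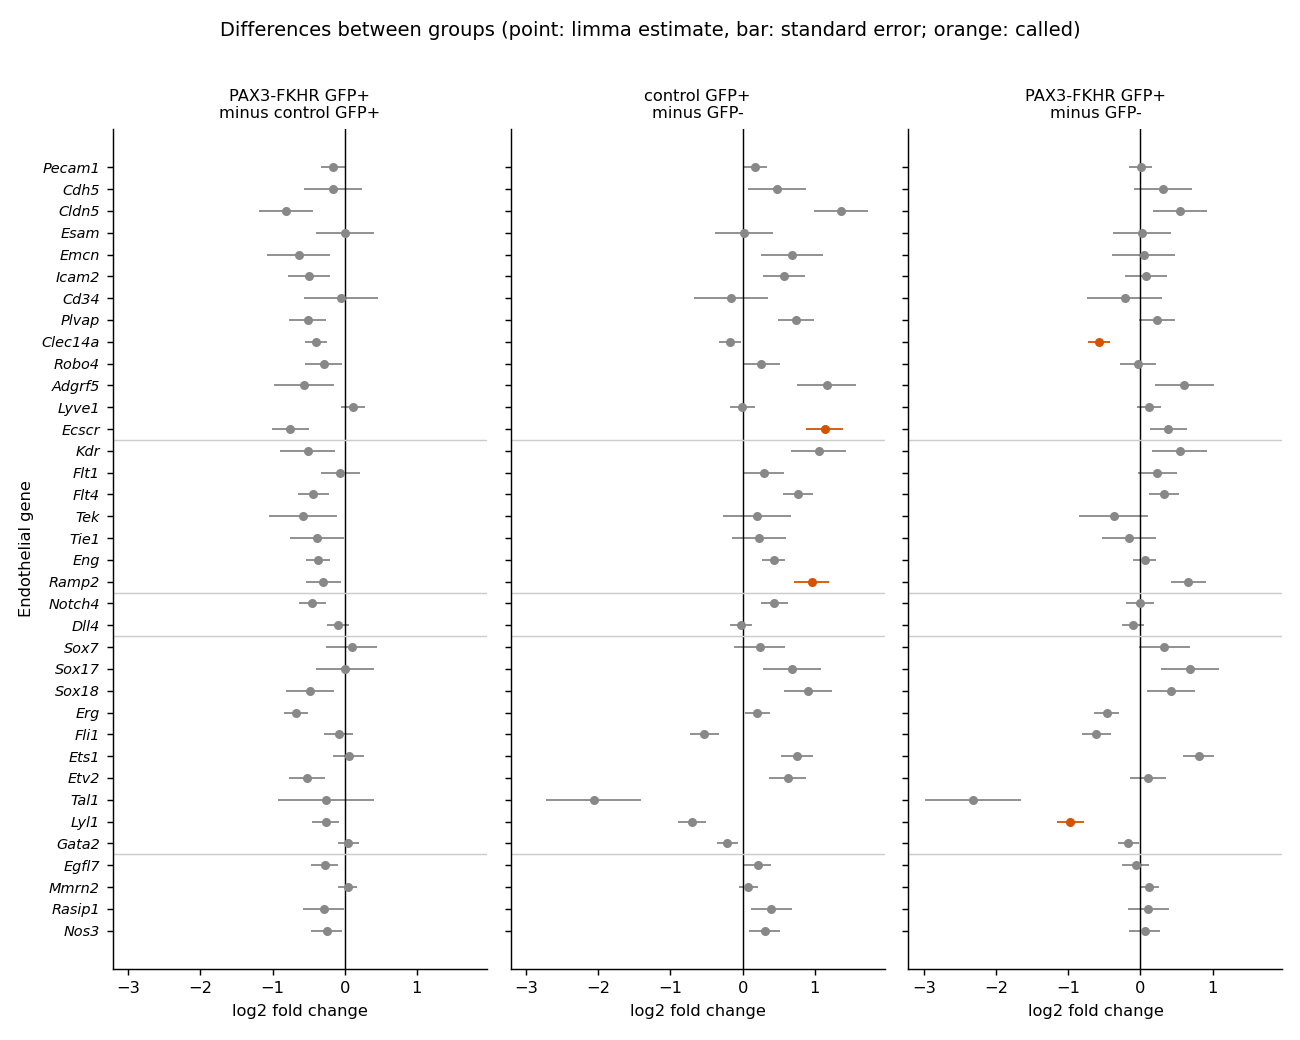
Each panel gives 1 comparison and each row 1 of the 36 endothelial genes, with the log2 fold change from limma as a point, its standard error as a bar and called genes in orange. No gene is orange for PAX3-FKHR GFP+ minus control GFP+, where 29 of 36 points lie below 0, while Ecscr and Ramp2 are orange for control GFP+ minus GFP- and Clec14a and Lyl1 for PAX3-FKHR GFP+ minus GFP-.

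Lyl1, Tal1 and Gata2 are used by blood cells and their progenitors as well as by endothelium. Tal1 had 4.31, 4.99 and 3.66 in PAX3-FKHR GFP+ cells, 4.28, 5.13 and 4.33 in control GFP+ cells and 4.89, 6.96 and 8.08 in GFP- cells. GFP- replicates 2 and 3 stood above every other array, and GFP- replicate 1 lay among the GFP+ arrays. Its log2 fold change over GFP- cells was -2.32 in PAX3-FKHR GFP+ cells (standard error 0.66, limma, adjusted p = 0.0638) and -2.06 in control GFP+ cells (standard error 0.66, adjusted p = 0.1). Gata2 had 6.98, 7.03 and 6.67 in PAX3-FKHR GFP+ cells, 6.76, 6.98 and 6.80 in control GFP+ cells and 7.05, 6.98 and 7.16 in GFP- cells, with GFP- replicate 3 the highest array.

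Markers of red blood cells had the same order over the GFP- arrays as Tal1 and Lyl1, and Gata2 did not have it. That order was not particular to blood genes. The 36 endothelial genes had it as a set (-0.54, -0.03 and 0.23), and so did the platelet, macrophage and limb ectoderm lists. The mean deviation over 14 erythroid genes was -0.60, -0.02 and -0.87 on PAX3-FKHR GFP+ arrays 1 to 3, -0.70, 0.17 and -1.16 on control GFP+ arrays 1 to 3, and -0.92, 1.60 and 2.51 on GFP- arrays 1 to 3. GFP- replicates 2 and 3 were thus high in erythroid genes, with 14 and 13 of 14 above their own 9-array mean, and GFP- replicate 1 was low with 4 of 14. Klf1, an erythroid transcription factor, had 4.95, 5.34 and 5.14 in PAX3-FKHR GFP+ cells, 5.09, 5.68 and 4.75 in control GFP+ cells and 6.04, 7.80 and 8.88 in GFP- cells, and Gata1 had the same order of GFP- arrays at 5.57, 6.83 and 7.86. The part of blood cells in the values of Tal1, Lyl1 and Gata2 was not tested. Leaving those 3 genes out was chosen after the values were seen. It left 1 member called lower in PAX3-FKHR GFP+ than in GFP- cells (Clec14a). The median of the rest in control GFP+ over GFP- cells was 0.40. This step only shortens the list and changes no other gene's fit. Lyl1 had been called, and all 3 genes had log2 fold changes below 0 in control GFP+ over GFP- cells. Both shifts were thus fixed in advance and are not read as a result about the rest.

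Platelet and macrophage genes were also highest on replicate 2 within each GFP+ group. The mean deviation over 7 platelet genes was -0.20, 0.38 and -0.61 on PAX3-FKHR GFP+ arrays 1 to 3, -0.28, 0.57 and -0.81 on control GFP+ arrays 1 to 3, and -0.20, 0.28 and 0.87 on GFP- arrays 1 to 3. Over 19 macrophage genes it was -0.06, 0.60 and -0.87 on PAX3-FKHR GFP+ arrays, -0.15, 0.28 and -0.83 on control GFP+ arrays and 0.24, 0.33 and 0.46 on GFP- arrays. The array with the most endothelial signal, control GFP+ replicate 2, was therefore not the one with the most erythroid, platelet or macrophage signal, which was GFP- replicate 3 for the erythroid and platelet genes and PAX3-FKHR GFP+ replicate 2 for the macrophage genes. Within both GFP+ groups, replicate 2 was the highest and replicate 3 the lowest for the endothelial, platelet and macrophage genes, and so it was for the erythroid, myogenic and neural and crest genes, so that this order was not particular to vascular or blood genes. The part of other cell types carried along in the sort was not tested.

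**Figure D4:**
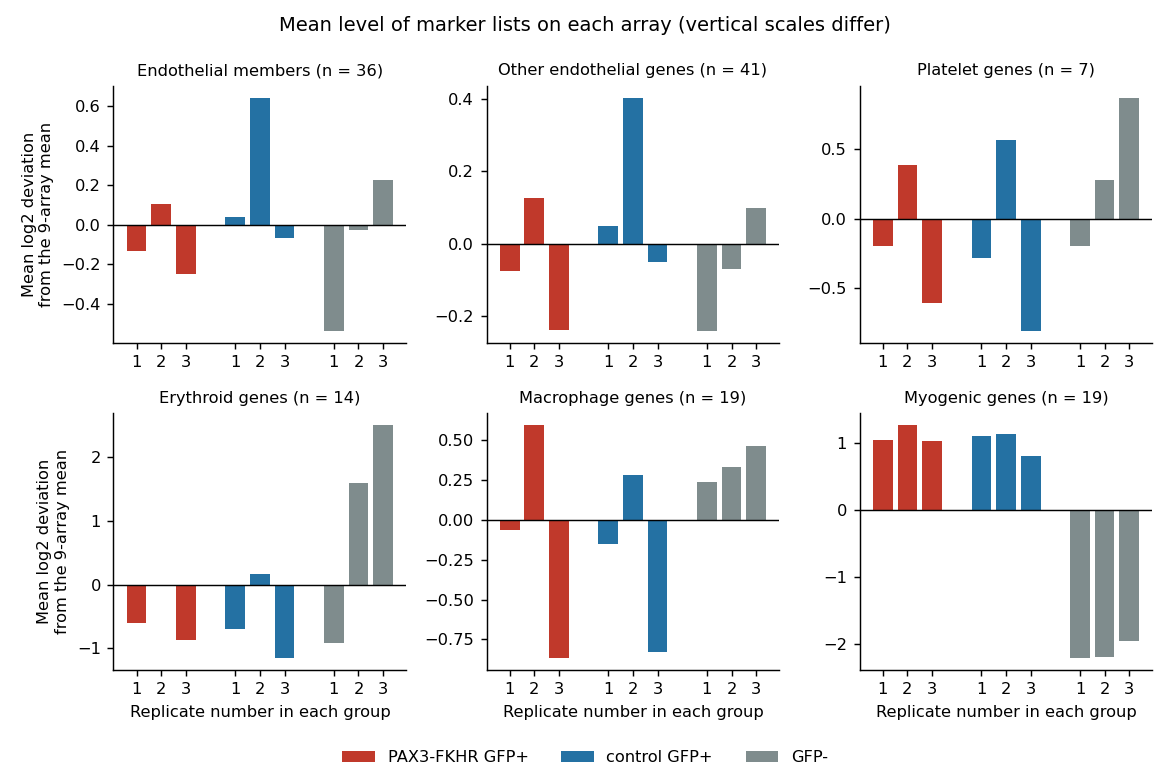
Bars give, for each array, the mean over the genes of a list of the log2 value minus the gene's 9-array mean, for 6 lists and with the groups in colour (vertical scales differ). The endothelial lists peak on control GFP+ replicate 2, the erythroid and platelet lists on GFP- replicate 3, and the myogenic list separates the 6 GFP+ arrays from the GFP- arrays.

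A further list of 41 endothelial genes was also highest on control GFP+ replicate 2. The mean deviation of this list was -0.08, 0.13 and -0.24 on PAX3-FKHR GFP+ arrays 1 to 3, 0.05, 0.40 and -0.05 on control GFP+ arrays 1 to 3, and -0.24, -0.07 and 0.10 on GFP- arrays 1 to 3. Its lowest arrays, GFP- replicate 1 and PAX3-FKHR GFP+ replicate 3, were nearly equal at -0.242 and -0.239. In PAX3-FKHR GFP+ against control GFP+ cells 0 of these 41 were called in either direction by limma (0.395% of all probe sets higher, 0.142% lower). At an unadjusted p under 0.05 there were 1 higher and 4 lower, and the smallest adjusted p was 0.126. In control GFP+ against GFP- cells 4 rose, Calcrl, Arhgef15, Plxnd1 and Afap1l1 (1.84% of all probe sets were called higher), and 2 fell, Nrp2 and Lmo2 (4.01%). In PAX3-FKHR GFP+ against GFP- cells 2 rose, Calcrl and Arhgef15 (2.8% of all probe sets), and 3 fell, Nrp2, Efnb2 and Lmo2 (4%). Arhgef15, Plxnd1 and Efnb2 were partly outside the rule for naming genes and are named after their values were seen.

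Lmo2, a bridging partner of Tal1 and Lyl1 in blood and endothelial progenitors, had 6.62, 6.90 and 6.20 in PAX3-FKHR GFP+ cells, 7.41, 7.70 and 7.22 in control GFP+ cells and 8.84, 8.89 and 8.87 in GFP- cells. The 3 groups did not overlap, and the GFP- arrays were nearly equal, so that Lmo2 did not follow the erythroid genes over the GFP- arrays. Its log2 fold change over GFP- cells was -2.30 in PAX3-FKHR GFP+ cells (limma, adjusted p = 8.07e-05) and -1.43 in control GFP+ cells (adjusted p = 0.00247). Arhgef15, an exchange factor of vessels, went the other way with 6.50, 6.67 and 6.84 in PAX3-FKHR GFP+ cells, 6.05, 6.06 and 6.27 in control GFP+ cells and 5.32, 5.75 and 5.19 in GFP- cells. The groups again did not overlap, and on the log2 scale Arhgef15 rose by 1.25 in PAX3-FKHR GFP+ over GFP- cells (adjusted p = 0.00166) and by 0.70 in control GFP+ over GFP- cells (adjusted p = 0.0356).

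Of 14 genes for vascular ligands, 0 were called in PAX3-FKHR GFP+ against control GFP+ cells (0.395% of all probe sets higher, 0.142% lower). There, 1 was higher and 3 lower at an unadjusted p under 0.05. Against GFP- cells, 1 was called higher (1.84% of all probe sets) and 1 lower (4.01%) in control GFP+ cells. In PAX3-FKHR GFP+ cells 1 was called higher (2.8%) and 3 lower (4%). Pgf, a VEGF family ligand of Flt1, had 6.98, 7.08 and 7.13 in PAX3-FKHR GFP+ cells, 7.46, 7.41 and 7.51 in control GFP+ cells and 5.85, 5.44 and 6.03 in GFP- cells. On the log2 scale it rose over GFP- cells by 1.29 in PAX3-FKHR GFP+ (limma, adjusted p = 0.00104) and by 1.68 in control GFP+ cells (adjusted p = 0.000323). Jag1, a Notch ligand, was lower than in GFP- cells, with log2 fold changes of -1.73 in PAX3-FKHR GFP+ (adjusted p = 0.00356) and -1.14 in control GFP+ cells (adjusted p = 0.0326). Vegfd, a ligand of Flt4, and Angpt1, the ligand of Tek, fell in PAX3-FKHR GFP+ against GFP- cells, with log2 fold changes of -1.73 (adjusted p = 0.0321) and -1.01 (adjusted p = 0.00858).

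Fli1 was the member least like the rest. It had 6.23, 6.27 and 6.32 in PAX3-FKHR GFP+ cells, 6.37, 5.90 and 6.80 in control GFP+ cells and 6.98, 6.81 and 6.87 in GFP- cells, and control GFP+ replicate 2, the highest array for most members, was its lowest. Every GFP- value was above every GFP+ value, by a slight margin (6.8108 on GFP- replicate 2, 6.7959 on control GFP+ replicate 3). Its log2 fold change over GFP- cells was -0.61 in PAX3-FKHR GFP+ (limma, adjusted p = 0.103) and -0.53 in control GFP+ cells (adjusted p = 0.157). The second Fli1 probe set, close in level, was called lower in both, at -1.43 (adjusted p = 0.00425) and -1.07 (adjusted p = 0.0213), so the call for Fli1 depends on the probe set.

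Promoter sequences were at hand for 21 of the 36 genes, with 28 start sites, each as 250 bases before and 50 after the start (RefSeq, build GRCm38.p6). The ETS core letters GGAAG or their reverse complement CTTCC stood in 21 of the 28 (75.0%), beside 71.4% of all 32851 mouse promoters of this length, and the GATA letters AGATAA or their complement in 3 of 28 (10.7%) beside 11.2%. Neither share stands out from that of promoters at large, and a match of letters is not a binding site. The 3 shown are those of Tie1, which holds 7 ETS matches, of Kdr, which holds 1, and 1 of the pair listed for Tal1, which holds 2 and belongs to the member with the widest range. Each reads 5′ to 3′ on the strand of the gene, with the ETS letters in capitals. They lie at chr4:118489800-118490099 (minus strand, Tie1), chr5:75978406-75978705 (minus strand, Kdr) and chr4:115057561-115057860 (plus strand, Tal1).
Tie1: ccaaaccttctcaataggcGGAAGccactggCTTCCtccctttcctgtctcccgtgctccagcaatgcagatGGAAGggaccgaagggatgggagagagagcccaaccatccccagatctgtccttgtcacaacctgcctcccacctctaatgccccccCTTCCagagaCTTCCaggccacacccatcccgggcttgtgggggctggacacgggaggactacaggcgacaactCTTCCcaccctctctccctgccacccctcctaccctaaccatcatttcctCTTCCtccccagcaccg
Kdr: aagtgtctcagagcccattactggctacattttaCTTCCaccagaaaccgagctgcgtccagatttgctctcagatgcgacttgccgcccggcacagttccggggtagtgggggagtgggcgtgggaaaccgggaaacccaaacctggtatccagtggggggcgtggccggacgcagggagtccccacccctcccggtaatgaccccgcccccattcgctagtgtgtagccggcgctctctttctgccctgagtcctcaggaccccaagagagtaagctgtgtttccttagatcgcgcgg
Tal1: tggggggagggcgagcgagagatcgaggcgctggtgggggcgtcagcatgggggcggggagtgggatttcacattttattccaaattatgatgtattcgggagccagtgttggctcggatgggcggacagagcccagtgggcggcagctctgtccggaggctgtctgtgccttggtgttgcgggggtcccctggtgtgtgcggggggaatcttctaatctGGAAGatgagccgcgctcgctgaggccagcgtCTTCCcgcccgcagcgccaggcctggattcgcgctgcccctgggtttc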

How the data were processed

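RNA of sorted E10.5 forelimb bud cells was measured on 9 Affymetrix Mouse430_2 arrays after two-cycle amplification. The deposited values are log2 values made by the authors with RMA, whose version is not given in the sources used here. RMA corrects background, brings the arrays to a common distribution and summarises the probes of a set, so whole-array shifts are removed and low values are compressed. The table holds 45101 probe sets, of which 64 array controls were left out and 45037 tested. The platform annotation gives 1 gene symbol to 34945, several to 932 and none to 9160. Absent calls, on which the study filtered, were not used here.

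A single limma 3.58.1 model held the 9 arrays (R 4.3.3, intensity trend, eBayes), with 3 contrasts and Benjamini-Hochberg adjustment over all probe sets. A call needs an adjusted p below 0.05 with a log2 fold change of 0.5 or more in size. Members and lists were chosen with earlier results of these data known. Values on every array are given for called members and a set of named vascular genes, and of other lists for up to 4 genes per contrast with the smallest adjusted p. Another 10 lists of marker and vascular genes were used, of which 6 are given beside the members and 4 here. Limb mesenchyme genes (19) had mean deviations of -0.80 to -0.37 on GFP+ and 0.92 to 1.21 on GFP- arrays, limb ectoderm genes (16) -0.69 to -0.02 and 0.07 to 1.10, neural and crest genes (8) 0.19 to 0.97 and -1.19 to -1.05, and mural genes (14) -0.09 to 0.36 and -0.30 to -0.19. The script was tested on simulated data.

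Replicate numbers come from the sample titles. After removal of group means, equally numbered arrays of PAX3-FKHR GFP+ and of control GFP+ cells correlated by 0.164, 0.472 and 0.287, so the number was tried as a block. With GFP- arrays equal numbers correlated between -0.288 and 0.155, and did not pair. Alternatives were median centring, a repeated quantile normalization, no trend, array weights, the block, the 6 arrays compared, other thresholds, a filter at the median, other probe sets, the methods' local pooled error test (on group medians) and leaving out each array.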

Additional observations from a re-analysis of the deposited data

How the results depend on the processing

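In PAX3-FKHR GFP+ against control GFP+ cells, 0 members were called in either direction under each of 21 alternatives, and the median log2 fold change lay between -0.46 and -0.07. With replicate number as a block, in fits of 9 arrays or of the 6 compared, that count was also 0. In control GFP+ against GFP- cells, the 2 members called higher became 7 with array weights, 4 with the replicate block on 9 arrays, 4 with the filter at the median and 4 with each gene's probe sets averaged. They became 1 with the replicate block on 6 arrays, 1 at a log2 fold change of 1, 0 with the 6 arrays compared and 0 on the second probe sets of 17 genes. Leaving out 1 array gave 0 to 4. The 0 called lower became 3 with array weights, 2 with the mean of probe sets, and 1 with the replicate block on 9 arrays, with the filter, on the second probe sets and with the local pooled error test, and 0 to 2 with 1 array left out. In PAX3-FKHR GFP+ against GFP- cells, the 0 called higher became 1 with array weights, the replicate block on 9 arrays, the filter or the mean of probe sets, and 2 with the local pooled error test, and 0 to 1 with 1 array left out. The 2 called lower became 4 with array weights and 1 without the trend, at a fold change of 1.5 or on the second probe sets. They became 0 at a log2 fold change of 1, and 0 to 3 with 1 array left out. Without Tal1, Lyl1 and Gata2 the count was 1, because Lyl1 had then left the list. Erg in this comparison changed sign on its second probe set, at 0.0522 in place of -0.47. The share of all probe sets called was computed only for the limma fit used throughout and for the local pooled error test. These changes in count are therefore not read as a result about the members. Their cause was not tested. For single genes, 309 values kept direction and side of the threshold, 47 came to pass it and 28 no longer passed. The median group share of variance lay between 34.0% and 48.2%. Signal below the median of all values limits what can be seen of Pecam1, Clec14a and Lyve1.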

Other observations

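Outside the members, the genes whose values over the 9 arrays were most like the mean of the 36 endothelial genes were Tmem204 (r = 0.97), Zik1, Gm16316, Clec1b (0.95), Aplnr (0.95), Mmrn1 (0.95), Hrh4, Fgd5, Stab1 and Pou5f1, out of 18157 genes. Aplnr, Fgd5 and Stab1 are in the further list of 41 endothelial genes. Aplnr, the apelin receptor of sprouting and venous endothelium, had 8.88, 9.25 and 8.44 in PAX3-FKHR GFP+ cells, 8.72, 10.13 and 8.45 in control GFP+ cells and 7.43, 8.41 and 9.53 in GFP- cells. Control GFP+ replicate 2 was again the highest array and GFP- replicate 1 the lowest. Clec1b, a receptor of platelets, had 5.18, 5.85 and 4.96 in PAX3-FKHR GFP+ cells, 5.37, 6.42 and 5.31 in control GFP+ cells and 4.52, 5.55 and 6.27 in GFP- cells. With group means removed, the 10 genes most like the members were Rasgrp3 (0.99), Ddc, Aplnr, Arpc5, Clec1b, Zik1, Sec22b, Itga2b (in the platelet list), Nap1l1 and S100a16. These likenesses are over 9 arrays, carry no test, and say nothing of shared function.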
